A study of Mus musculus with 12 samples.

Results

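Cardiomyocytes that received human-like oncostatin M (hlOSM) were compared directly with cardiomyocytes that received mouse oncostatin M (mOSM). hlOSM signals through OSMR and LIFR, and mOSM through OSMR alone. The intended difference between these proteins is access to LIFR. Whether they also act with unequal strength at OSMR was not tested, and these samples cannot tell that apart from added LIFR signaling. The comparison rests on 6 of the 12 samples of the series, 3 libraries of each cytokine, and was made over the 13184 of 22915 genes whose normalized count reached 10 or more in 3 or more of the 12 libraries. All cells were primary cardiomyocytes in culture, isolated from adult male C57/Bl6 mice of 12 weeks, with no genetic change named in the labels, and were kept in normoxia for 24 h with mOSM, hlOSM, mouse leukemia inhibitory factor (mLIF, which signals through LIFR) or an equal volume of PBS, the solvent of the proteins. The sample descriptions give 25 ng/mL for each recombinant protein, and the paper states a different dose. No source says whether the 3 libraries of a condition came from separate animals or cultures, so that every p-value below measures the spread between libraries, which may be technical.

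Oncostatin M and LIF belong to the interleukin-6 family of cytokines. Each binds a receptor chain of its own, OSMR or LIFR, which pairs with the shared chain gp130 (encoded by Il6st), and the paired chains activate JAK kinases, STAT transcription factors and the ERK pathway. In heart muscle cells, OSMR signaling is known for dedifferentiation, in which the contractile apparatus is dismantled, and LIFR signaling for protection of the cells and for growth. Mouse oncostatin M has little affinity for mouse LIFR, whereas hlOSM carries the AB loop of the human protein, which gives it access to LIFR as well.

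Values are the deposited normalized counts, which are not divided by gene length, so that levels are compared between libraries and never between genes. Differences are on the scale of log2(normalized count + 1), with the standard error (SE) or 95% interval from a limma fit of all 12 libraries, and a gene passed at a Benjamini-Hochberg adjusted p under 0.05 over the 13184 genes. Library totals on this scale ran from 2745748 to 2911891 and are not numbers of reads, so that the depth behind a value is unknown. The cardiomyocyte markers were present in every library, their 10 genes adding up to between 37188 and 41702 normalized counts with mOSM and between 37994 and 40645 with hlOSM, against 51743 to 53874 with PBS. Sums for markers of other cells are given as mOSM against hlOSM. They were 2496 to 2921 against 2355 to 2596 for fibroblasts and 1775 to 2105 against 1815 to 1921 for endothelial cells. Smooth muscle cells and pericytes had 2139 to 2453 against 2188 to 2239. Macrophages and other leukocytes had 360 to 401 against 335 to 402, and Schwann cells and neurons 71 to 91 against 70 to 73. These ranges overlapped between mOSM and hlOSM for all of these lists. Sums of different lists cannot be compared with each other, since values are not divided by gene length. They therefore do not show how pure the cardiomyocytes were. In mOSM replicate 1, Ttn alone made up 23070 of the 37950 normalized counts of the cardiomyocyte markers. In bulk libraries, fewer cells of a type and less RNA per cell cannot be told apart.

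Few genes passed between hlOSM and mOSM, and all of them were lower with hlOSM. With hlOSM, 14 genes (0.106% of those tested) passed as lower than with mOSM and 0 (0.0%) as higher, while 605 genes (4.59%) were lower and 382 (2.9%) higher at an unadjusted p under 0.05 in limma. The median difference over all genes was -0.0058. Of the 14 genes, Lrrc10, Perm1 and Asb15 are genes of heart or skeletal muscle, and Camk2b and Kcnd2 are genes of both muscle and brain. Arc, Mapt and Slc1a2 are best known from the brain. The others were the transcription factor gene Maf, the signaling genes Arhgef6, Kctd12b and Cxcr4, and the noncoding genes Gm12295 and Gm36827. In all 14, the 3 hlOSM libraries lay below the 3 mOSM libraries without overlap, as in 741 genes (5.62%) of all genes tested. With the replicate number as a block, 2 of the 14 passed (0.0152% of the genes tested), Camk2b and Arc, each with an adjusted p of 0.0323, and the other 12 had adjusted p-values between 0.0503 and 0.223. With the 6 libraries of the comparison fitted alone, 0 genes passed in limma and 797 had an unadjusted p under 0.05. Without mOSM replicate 3, Camk2b alone passed.

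**Figure D1:**
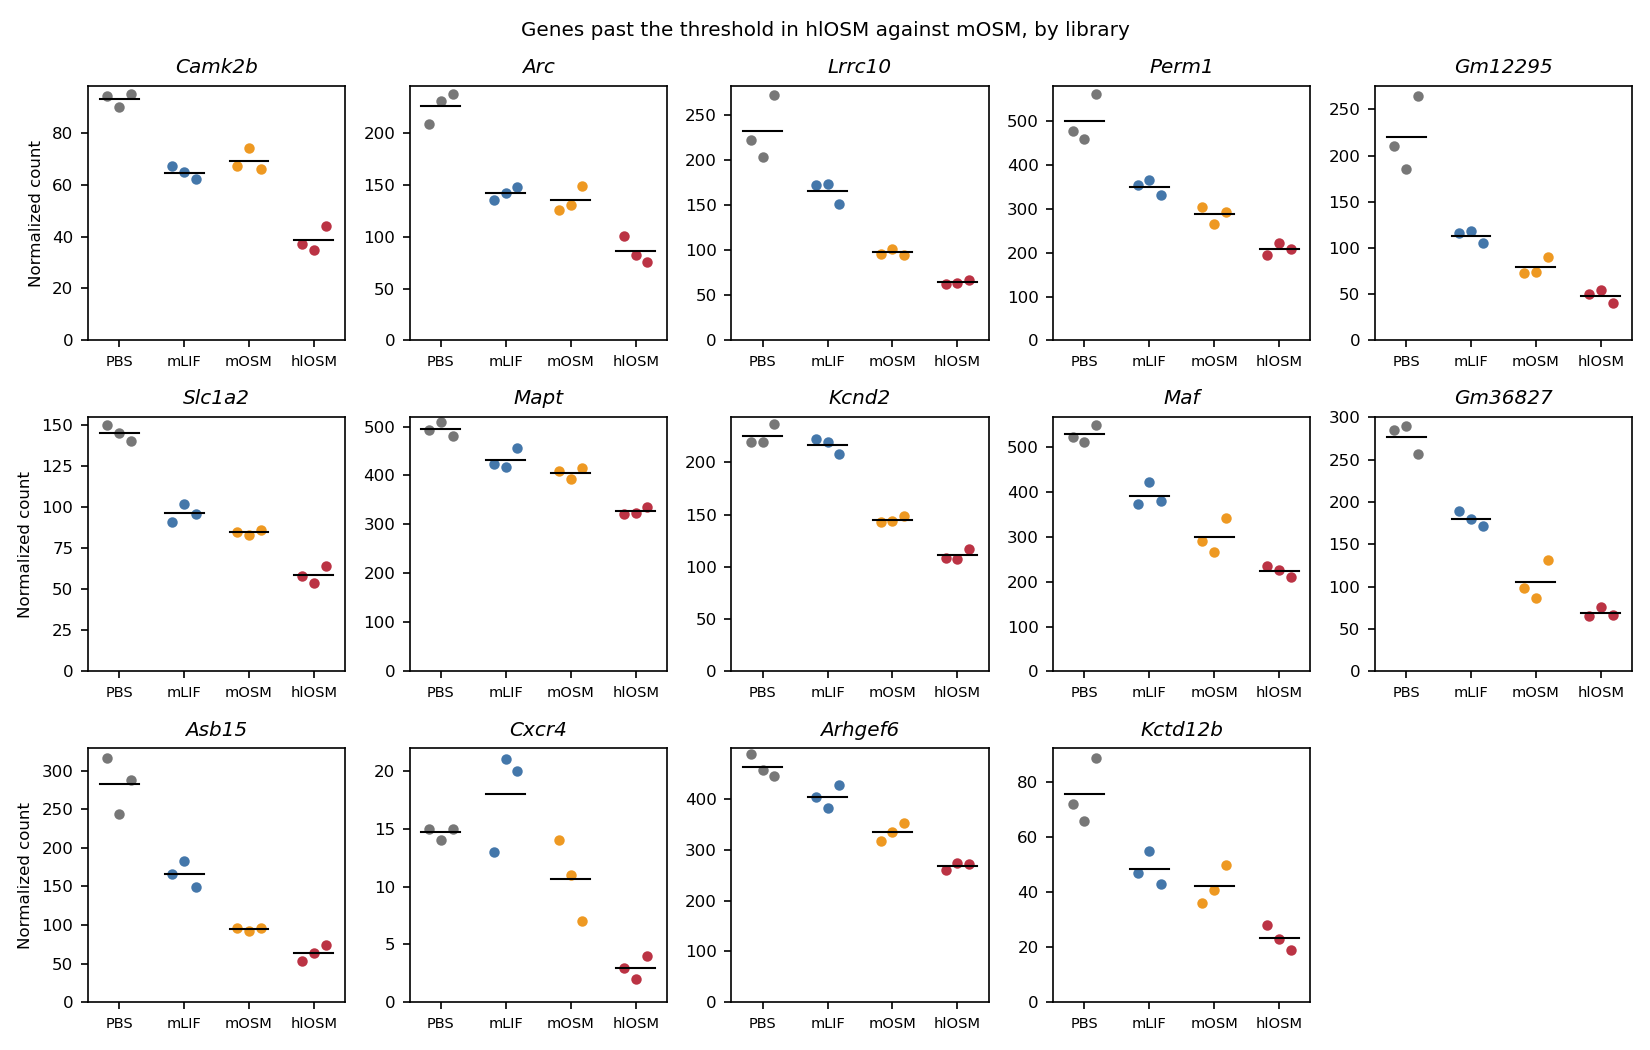
Normalized counts (y axis, from 0) of the 14 genes that passed in hlOSM against mOSM, in the 3 libraries (points) of each of the 4 conditions, with the mean as a line. In every panel the hlOSM points lie lowest, and in 13 of the 14 panels, all but Cxcr4, the mean with mLIF lies below that with PBS.

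The promoters of the genes with the smallest p among those with a RefSeq window are shown first. The 14 genes were chosen by this comparison, and whether they share a regulator was not tested. RefSeq windows (GRCm38.p6) were found for 10 of the 14 genes, in 11 windows, and not for Arc, Mapt, Maf and Kctd12b. The 250 bases before the RefSeq start are given 5′ to 3′ on the strand of the gene. Capitals mark the letters AGATAA, on either strand, a motif of the GATA factors. For Camk2b the window is chr11:6065749-6065998 on the minus strand, for Lrrc10 chr10:117045091-117045340 on the plus strand and for Perm1 chr4:156215677-156215926 on the plus strand.
Camk2b: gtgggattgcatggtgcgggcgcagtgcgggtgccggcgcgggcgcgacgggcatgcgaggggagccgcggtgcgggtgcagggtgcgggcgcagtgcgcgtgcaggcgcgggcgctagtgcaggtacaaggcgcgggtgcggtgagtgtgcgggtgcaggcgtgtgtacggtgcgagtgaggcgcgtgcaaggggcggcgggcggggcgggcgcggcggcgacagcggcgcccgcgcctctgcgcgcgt
Lrrc10: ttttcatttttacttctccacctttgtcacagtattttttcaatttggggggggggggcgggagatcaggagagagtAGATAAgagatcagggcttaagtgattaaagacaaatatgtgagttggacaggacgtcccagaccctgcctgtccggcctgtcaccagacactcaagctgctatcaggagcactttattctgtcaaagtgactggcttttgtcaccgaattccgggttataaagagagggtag
Perm1: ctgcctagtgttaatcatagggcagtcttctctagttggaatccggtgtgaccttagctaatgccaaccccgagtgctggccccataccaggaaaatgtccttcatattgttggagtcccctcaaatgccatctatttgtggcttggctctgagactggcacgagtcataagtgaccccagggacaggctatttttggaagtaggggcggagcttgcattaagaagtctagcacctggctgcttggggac
The RefSeq start of Lrrc10 is that of the table, and those of Camk2b and Perm1 lie 614 and 59 bases inside the gene of the table. The STAT motif TTCNNNGAA, which reads the same on both strands, was in 0 of the 11 windows, against 7.02% of the 32851 promoter windows of the same length. The MEF2 motif (2.92% of all windows), the CArG box of SRF (1.47%) and the ERR motif TCAAGGTCA (0.387%) were also in 0 of the 11, each searched on both strands. At such shares, 11 windows are too few to tell whether a motif is rarer or more common in these genes. AGATAA was in 2 of the 11 windows, those of Lrrc10 and Gm12295, against 9.99% of all windows, and in Lrrc10 it begins 173 bases before the start. The RefSeq start of Gm12295 lies 77965 bases inside the gene of the table, so that its window is far from that gene's start. Those of Slc1a2 and of an Arhgef6 window lie 47779 and 12128 bases inside.

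Camk2b encodes the beta subunit of the calcium and calmodulin-dependent kinase CaMKII, which phosphorylates channels and calcium-handling proteins (chromosome 11, 5969644 to 6066362, mm10). It had normalized counts of 67, 74 and 66 with mOSM and of 37, 35 and 44 with hlOSM. With PBS it had 94, 90 and 95 and with mLIF 67, 65 and 62, so that the libraries of mOSM and mLIF overlapped and those of hlOSM overlapped with neither. The fall from mOSM to hlOSM was -0.82 (SE 0.11, 95% interval -1.06 to -0.59, adjusted p = 0.00426), a mean at 0.56 of that with mOSM. Against PBS, the difference was -0.52 for mLIF, -0.43 for mOSM and -1.25 for hlOSM.

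Lrrc10 encodes a leucine-rich repeat protein of the cardiac sarcomere (chromosome 10, 117045341 to 117046768). It had 96, 102 and 95 with mOSM and 63, 64 and 67 with hlOSM, against 223, 204 and 272 with PBS and 173, 174 and 151 with mLIF. The 4 conditions did not overlap, and they stood in the order PBS, mLIF, mOSM, hlOSM. The difference between hlOSM and mOSM was -0.59 (SE 0.10, adjusted p = 0.0189, and 0.0663 with the block).

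Perm1, a muscle gene induced by the coactivator PGC-1 and the ERR nuclear receptors and a regulator of mitochondrial gene expression (chromosome 4, 156215868 to 156221307), had 304, 265 and 292 with mOSM and 194, 222 and 208 with hlOSM. With PBS it had 478, 459 and 561 and with mLIF 355, 366 and 330, in the same order of conditions as Lrrc10 and again without overlap. The difference between hlOSM and mOSM was -0.46 (SE 0.08, adjusted p = 0.0189, and 0.0503 with the block). Asb15, a muscle gene for the substrate adaptor of a ubiquitin ligase (chromosome 6, 24528144 to 24573164), had 96, 92 and 96 with mOSM and 53, 64 and 74 with hlOSM, a difference of -0.58 (SE 0.11, adjusted p = 0.0462). Its fall from PBS was -0.76 with mLIF and -1.56 with mOSM.

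Kcnd2 encodes the Kv4.2 channel, which carries the transient outward potassium current of ventricular myocytes in mice (chromosome 6, 21215503 to 21729805). It had 143, 144 and 149 with mOSM and 109, 108 and 117 with hlOSM, a difference of -0.38 (SE 0.07, adjusted p = 0.0462). With PBS it had 220, 220 and 237 and with mLIF 222, 220 and 208, which overlapped. It is thus among the 3 of the 14 genes that did not pass with mLIF against PBS (difference -0.06, adjusted p = 0.656), beside Arhgef6 (-0.20, adjusted p = 0.0519) and Cxcr4 (0.25, adjusted p = 0.643).

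Arc encodes a protein of the neuronal cytoskeleton whose transcription follows calcium and growth factor signals within minutes (chromosome 15, 74669083 to 74672570). It had 126, 130 and 149 with mOSM and 101, 82 and 76 with hlOSM, a difference of -0.65 (SE 0.10, adjusted p = 0.0106). With mLIF it had 135, 142 and 148, which overlapped with mOSM, and with PBS 208, 231 and 237. Slc1a2, a glutamate transporter (chromosome 2, 102658659 to 102790784), had 85, 83 and 86 with mOSM and 58, 54 and 64 with hlOSM (difference -0.53, SE 0.10, adjusted p = 0.0338). Mapt, which encodes the microtubule-binding protein tau (chromosome 11, 104231390 to 104332090), had 409, 393 and 416 with mOSM and 322, 324 and 336 with hlOSM, the smallest difference of the 14 (-0.31, SE 0.06, adjusted p = 0.0397). Of 10 markers of Schwann cells and neurons, 3 passed the filter on low values.

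Maf, a basic leucine zipper transcription factor (chromosome 8, 115682942 to 115707794), had 290, 266 and 341 with mOSM and 236, 227 and 210 with hlOSM (difference -0.41, SE 0.08, adjusted p = 0.0462). Arhgef6, an exchange factor for the small GTPases Rac and Cdc42 (chromosome X, 57231485 to 57338729), had 317, 335 and 353 with mOSM and 259, 273 and 271 with hlOSM (difference -0.32, SE 0.06, adjusted p = 0.0464). Kctd12b, of the KCTD family (chromosome X, 153685154 to 153696391), had 36, 41 and 50 with mOSM and 28, 23 and 19 with hlOSM (difference -0.84, SE 0.17, adjusted p = 0.0464). In all of these genes PBS was highest.

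Cxcr4, the receptor of the chemokine CXCL12 (chromosome 1, 128588199 to 128592293), was low in every library, with 14, 11 and 7 with mOSM and 3, 2 and 4 with hlOSM. Its difference of -1.53 (SE 0.30, adjusted p = 0.0464) is the largest of the 14 and rests on the pseudocount at such values. It was 15, 14 and 15 with PBS and 13, 21 and 20 with mLIF, and it is the single gene of the 14 that did not pass with mOSM against PBS. The noncoding Gm12295 (chromosome 11, 65277654 to 65365798) had 73, 74 and 90 with mOSM and 50, 54 and 40 with hlOSM (difference -0.71, SE 0.13, adjusted p = 0.0338). The noncoding Gm36827 (chromosome 10, 56970329 to 56982232) had 98, 87 and 131 with mOSM and 65, 76 and 67 with hlOSM (difference -0.58, SE 0.11, adjusted p = 0.0462).

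The genes that fell further with hlOSM were already low with mOSM. Of the 14, 13 passed as lower with mOSM against PBS (15.8% of all genes tested did) and 14 with hlOSM against PBS (19.8%), comparisons that share the mOSM or hlOSM libraries with the one described here. In the libraries with mLIF and PBS, which are not part of the comparison, 11 of the 14 passed as lower with mLIF (4.44% of all genes tested) and 10 did so with the block. Both tests use the same estimate of each gene's spread from the 12 libraries, so that they are not fully independent. The step from mOSM to hlOSM less the step from PBS to mLIF, that is hlOSM minus mOSM less mLIF minus PBS, passed in 0 of the 14 genes. Over all genes tested it passed in 20 (0.152%) in the negative and 2 (0.0152%) in the positive direction. It was -0.31 for Camk2b, 0.02 for Arc, -0.11 for Lrrc10, 0.04 for Perm1 and -0.32 for Kcnd2 (95% interval -0.54 to -0.11). The largest was that of the low Cxcr4, at -1.78 (-2.67 to -0.89). Just outside the threshold lay Fam129a (difference -0.37, adjusted p = 0.0501) and Tiam1 (-0.45, adjusted p = 0.0562) on the lower side, and the low Glt28d2 (1.34, adjusted p = 0.0582) on the higher side, with 6, 5 and 5 with mOSM and 14, 12 and 20 with hlOSM. Fam129a followed the 14, with 207, 216 and 228 with mOSM and 156, 175 and 174 with hlOSM, whereas Tiam1, with 145, 134 and 138 with mOSM and 105, 101 and 99 with hlOSM, stood at 71, 73 and 78 with PBS, so that both cytokines stood above PBS, hlOSM less so.

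**Figure D2:**
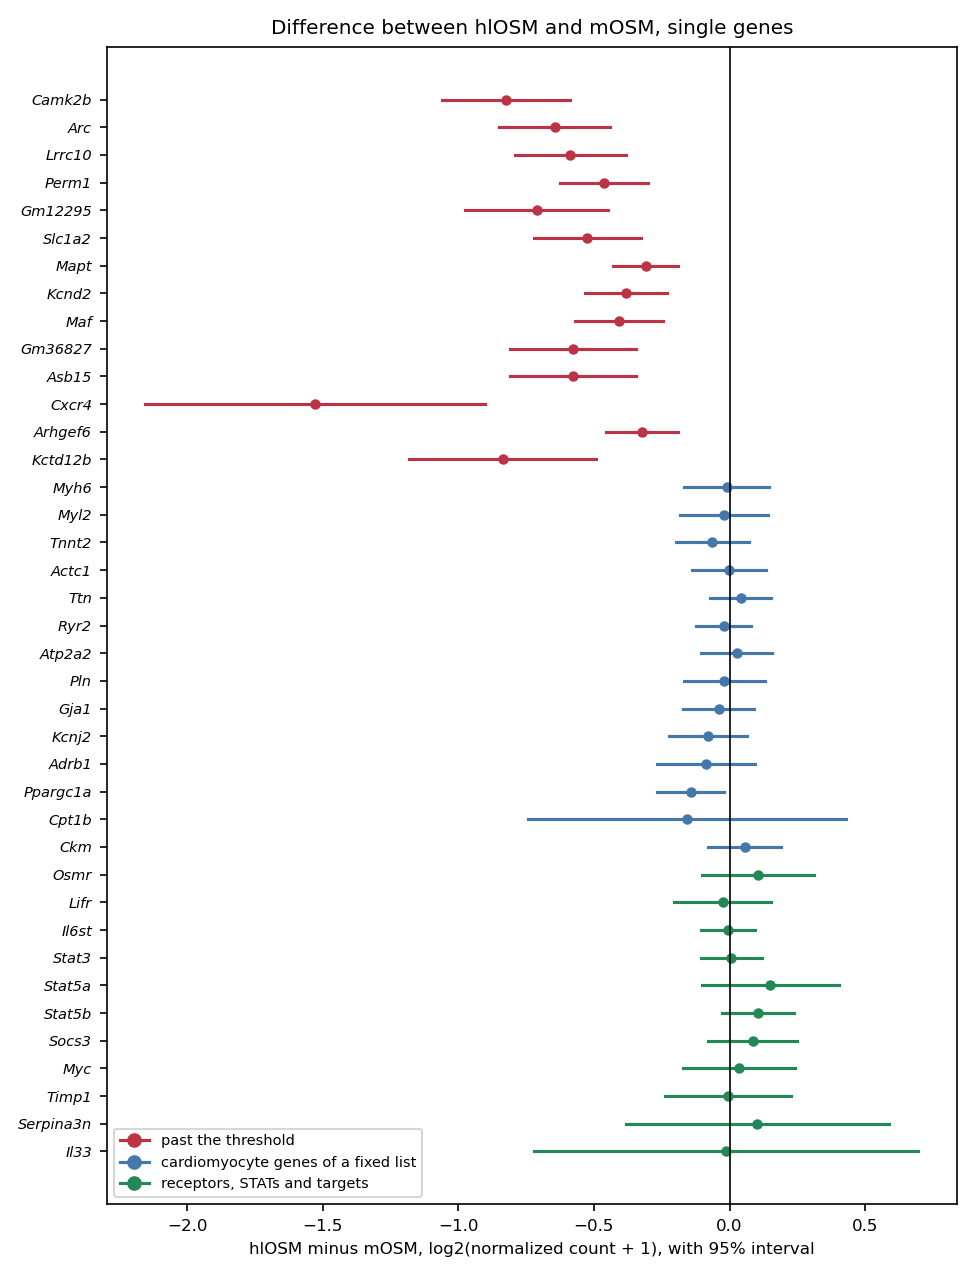
Difference between hlOSM and mOSM in log2(normalized count + 1) (x axis, points with 95% intervals) for the 14 genes that passed, 14 cardiomyocyte genes and 11 receptor, STAT and target genes. The 14 intervals lie below 0, and of the others only that of Ppargc1a does not reach 0.

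The abundant genes of the contractile apparatus did not differ detectably between hlOSM and mOSM. Myh6, the cardiac myosin heavy chain, had 2721, 2750 and 3436 with mOSM and 3026, 3061 and 2716 with hlOSM, a difference of -0.01 with a 95% interval from -0.17 to 0.15. Ttn (titin) differed by 0.04 (-0.07 to 0.15), Tnnt2 (troponin T) by -0.06 (-0.20 to 0.07) and Actc1 (cardiac actin) by -0.00 (-0.14 to 0.14). All of these stood below their level with PBS with mOSM (-0.35, -0.52, -0.49 and -0.19, each past the threshold). Ryr2, the calcium release channel, differed between hlOSM and mOSM by -0.02 (-0.12 to 0.08), Atp2a2, the calcium pump of the sarcoplasmic reticulum, by 0.03 (-0.10 to 0.16) and Gja1, the gap junction protein connexin 43, by -0.04 (-0.17 to 0.09). Pln, the inhibitor of that pump, differed by -0.02 (-0.17 to 0.13), though 64.7% of its exonic bases are overlapped by genes of the other strand. The lowest bound among these 8 intervals was that of Tnnt2. It lay above the difference of each of the 14 genes, which were chosen by that same difference.

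Over the 9 lists of contraction and excitation together, the difference was small and leaned to the lower side. Of 168 genes in these lists, 152 were tested, 15 were below the filter and 1 was not found by symbol. Their median difference was -0.038 against -0.0058 over all genes, and 104 of the 152 lay below 0 (52.1% of all genes tested did). At an unadjusted p under 0.05, 24 (15.8%) were lower and 3 were higher, against 4.59% and 2.9% of all genes tested, and 2, Camk2b and Kcnd2, passed after adjustment. The hlOSM libraries lay below the mOSM libraries without overlap in 21 genes and above them in 3, against 5.62% and 4.12% of all genes. With the replicate block, 21 were lower at an unadjusted p under 0.05 (2.84% of all genes) and 3 were higher (1.71%). The median moved with mOSM replicate 3, whose own median over these genes was 0.098 above their mean in the 6 libraries. Without that library the median difference was -0.0069, and 14.5% of the genes were lower at an unadjusted p under 0.05 (3.42% of all genes). The genes named from here on that did not pass after adjustment are given by their values. Counts in the single lists below are to be read beside the shares of all genes tested, 4.59% lower and 2.9% higher at an unadjusted p under 0.05. In short lists such counts rest on few genes.

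Of 19 potassium channel genes, 6 (31.6%) were lower at an unadjusted p under 0.05 and 0 higher, against 4.59% and 2.9% of all genes tested. Their median was -0.118. Beside Kcnd2, these were Kcnk3, a background channel, with 100, 95 and 103 with mOSM and 81, 74 and 78 with hlOSM (-0.35, adjusted p = 0.174), Kcnq1, of the slow delayed rectifier, with 76, 63 and 75 and then 54, 59 and 54 (-0.35, adjusted p = 0.385), Kcnj5, of the acetylcholine-gated channel, with 183, 166 and 167 and then 137, 143 and 157 (-0.24, adjusted p = 0.439), the inward rectifier Kcnj12 (-0.31) and the low Kcne1 (-0.76). The libraries of Kcnk3, Kcnq1 and Kcnj5 did not overlap between the cytokines, and all of these passed as lower with mLIF against PBS (-0.60, -0.48 and -0.37). Kcnj2, the main inward rectifier of the ventricle, differed by -0.08 (-0.22 to 0.06).

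Of 20 sodium and calcium channel and pump genes, 5 were lower and 2 higher at an unadjusted p under 0.05. Scn4b, a sodium channel beta subunit, had 156, 133 and 164 with mOSM and 122, 124 and 98 with hlOSM (-0.40, adjusted p = 0.188). Cacna1c, the pore of the L-type calcium channel, had 895, 808 and 890 with mOSM and 713, 769 and 773 with hlOSM (-0.20, adjusted p = 0.264), and Scn4a (-0.50) and Scn7a (-0.32) were also lower. Hcn4, a pacemaker channel gene, was on the higher side. It had 151, 144 and 127 with mOSM and 197, 171 and 165 with hlOSM (0.33, adjusted p = 0.49), from 40, 46 and 62 with PBS.

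In the sarcomere lists, 2 of 11 thick filament genes (among them Mylk3, -0.20), 2 of 14 thin filament genes (Nebl -0.18, Tpm2 -0.66) and 2 of 21 genes of titin and the Z-disc (Ldb3 -0.25, Myoz1 -0.50) were lower at an unadjusted p under 0.05 and 0 were higher. These were 18.2%, 14.3% and 9.52% of the lists, against 4.59% of all genes tested, and each share rests on 2 genes. Ldb3, the Z-disc protein cypher, had 698, 713 and 665 with mOSM and 559, 571 and 611 with hlOSM, without overlap (adjusted p = 0.116). Mylk3, the cardiac myosin light chain kinase, had 630, 567 and 689 and then 530, 603 and 509, which overlapped. Of 16 genes of calcium handling in the sarcoplasmic reticulum, Srl (-0.19) and Jph2 (-0.17) were lower, and of 12 CaMK and calmodulin genes Camk2b alone. Of 24 genes of adrenergic and cAMP signaling, 3 (12.5%) were lower and 1 (4.17%) higher, against 4.59% and 2.9% of all genes tested. Chrm2, the muscarinic receptor that opposes the beta adrenergic receptor, had 457, 454 and 535 with mOSM and 385, 420 and 400 with hlOSM (-0.26, adjusted p = 0.187), and the phosphodiesterase gene Pde4b had 825, 779 and 814 and then 907, 873 and 979 (0.19, adjusted p = 0.392). Adrb1, the main beta adrenergic receptor of the heart, differed by -0.09 (-0.27 to 0.09). The 15 intercalated disc genes had a median of 0.003, with Dsp (-0.13) the single gene that was lower.

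**Figure D3:**
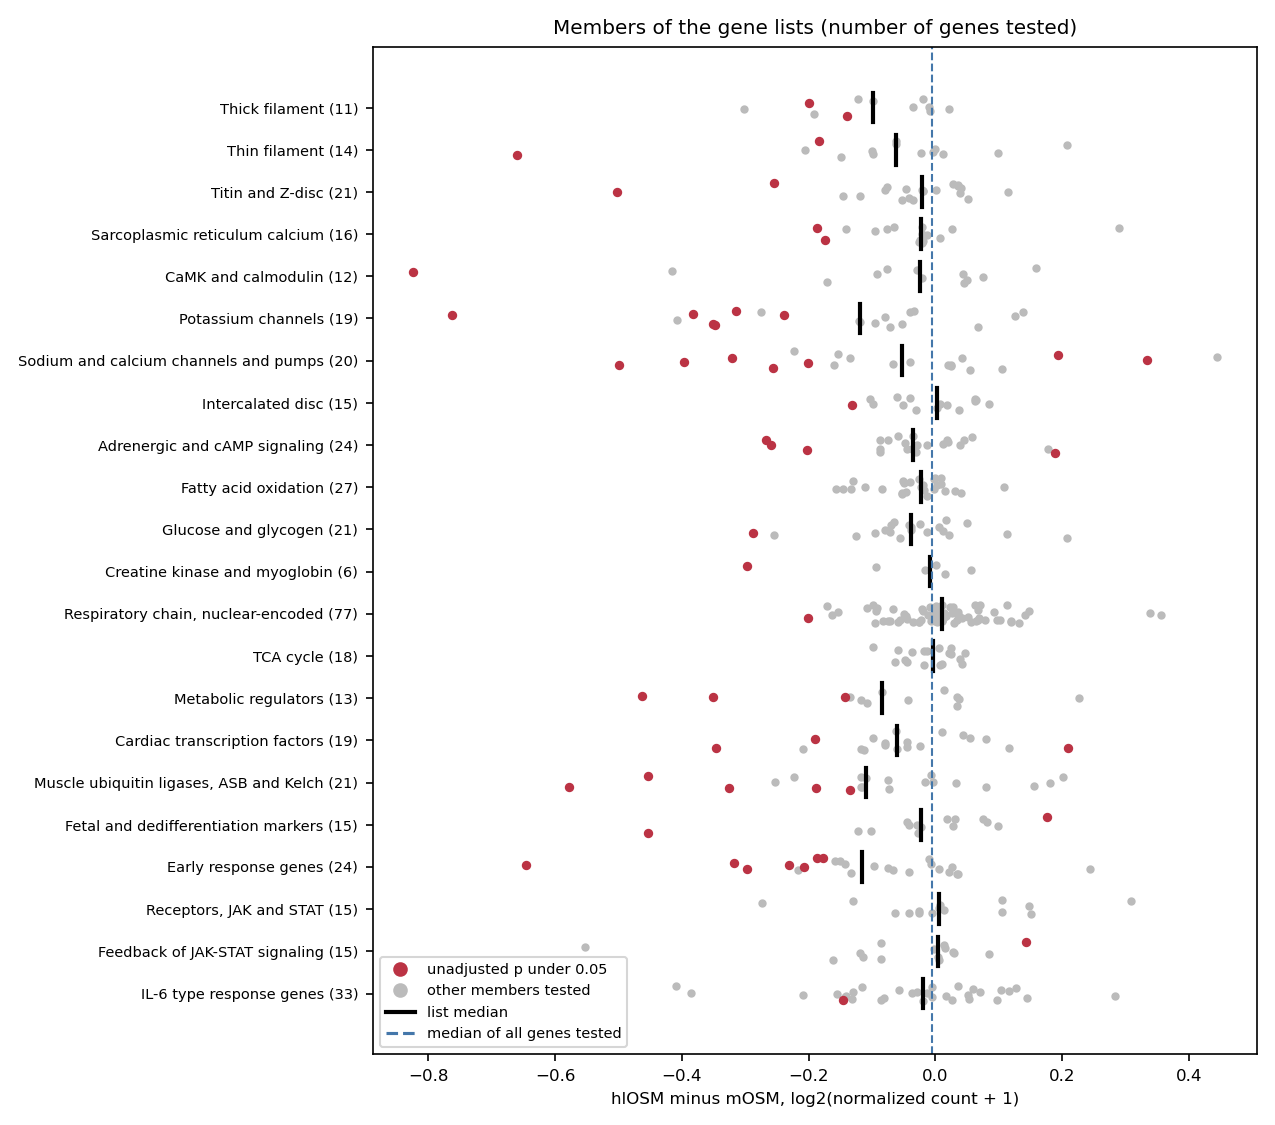
Difference between hlOSM and mOSM in log2(normalized count + 1) (x axis) for each tested member of the gene lists (rows, number tested in brackets), in red where the unadjusted p is under 0.05, with the median of the list in black and that of all genes dashed. Among the lists drawn, which leave out the cell type markers and the lists of general cell functions, potassium channels, early response genes and muscle ubiquitin ligase genes have the lowest medians, at -0.118, -0.115 and -0.109, and Camk2b is the leftmost point.

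Genes of energy metabolism themselves lay at the background. Of 149 genes in 5 metabolic lists, 3 (2.01%) were lower at an unadjusted p under 0.05 and 0 higher, with a median of -0.00082. The lists of 27 fatty acid oxidation genes and 18 genes of the citric acid cycle had 0 genes with an unadjusted p under 0.05 in limma, and 77 nuclear genes of the respiratory chain had 1, Ndufa8. Ckm, the muscle creatine kinase, differed by 0.06 (-0.08 to 0.19). The regulators of this metabolism were lower in 3 of 13 genes (23.1%, against 4.59% of all genes tested). Beside Perm1, these were Rxrg (-0.35) and Ppargc1a, the coactivator PGC-1 alpha, which had 257, 244 and 261 with mOSM and 225, 225 and 240 with hlOSM, without overlap (-0.14, 95% interval -0.27 to -0.02, adjusted p = 0.578).

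Of 21 genes for muscle ubiquitin ligases, ASB adaptors and Kelch proteins, 5 (23.8%) were lower at an unadjusted p under 0.05 and 0 higher, against 4.59% and 2.9% of all genes tested. Without overlap, 7 (33.3%) lay lower, against 5.62% of all genes. Asb15 passed. Asb10 had 72, 68 and 77 with mOSM and 53, 58 and 47 with hlOSM (-0.45, adjusted p = 0.187), and Klhl38 (-0.33), Asb14 (-0.19) and Fbxo40 (-0.13) were the others. Of 24 early response genes, which follow receptor signals quickly, 7 (29.2%) were lower and 0 higher, against 4.59% and 2.9% of all genes tested. Of the 24, 18 lay below 0 (52.1% of all genes did). Beside Arc these were Fos, Klf4, Egr2, Maff, Atf3 and Egr1, with differences between -0.18 and -0.32. Fos had 147, 151 and 169 with mOSM and 130, 122 and 127 with hlOSM (adjusted p = 0.2) and 158, 156 and 155 with PBS, so that hlOSM stood below PBS, whereas mOSM overlapped with it. Of 19 cardiac transcription factor genes, Tbx5 (-0.19) and Irx5 (-0.35) were lower and Tbx20 was higher (0.21), with 538, 536 and 458 with mOSM and 578, 545 and 649 with hlOSM.

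The receptors, the STAT genes and the targets that the cytokines raise did not differ detectably between hlOSM and mOSM. Of 15 receptor, JAK and STAT genes, 0 had an unadjusted p under 0.05 in limma. Osmr had 1264, 1323 and 1391 with mOSM and 1264, 1321 and 1732 with hlOSM (0.10, 95% interval -0.10 to 0.31), Lifr differed by -0.03 (-0.20 to 0.15), Il6st by -0.01 (-0.11 to 0.09) and Stat3 by 0.01 (-0.11 to 0.12). Socs3, the feedback inhibitor of JAK signaling, had 763, 809 and 875 with mOSM and 892, 804 and 899 with hlOSM (0.09, -0.08 to 0.25), from 199, 209 and 168 with PBS. Myc differed by 0.04 (-0.17 to 0.24), Timp1, an inhibitor of metalloproteinases, by -0.01 (-0.24 to 0.23) and the serpin gene Serpina3n by 0.10 (-0.38 to 0.59). Il33, the alarmin gene, stood at 198, 183 and 251 with mOSM and 196, 173 and 261 with hlOSM, against 11, 5 and 2 with PBS (-0.01, -0.72 to 0.70). Of 33 response genes of interleukin-6 type cytokines, 1 (Icam1) was lower at an unadjusted p under 0.05 and 0 higher.

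**Figure D4:**
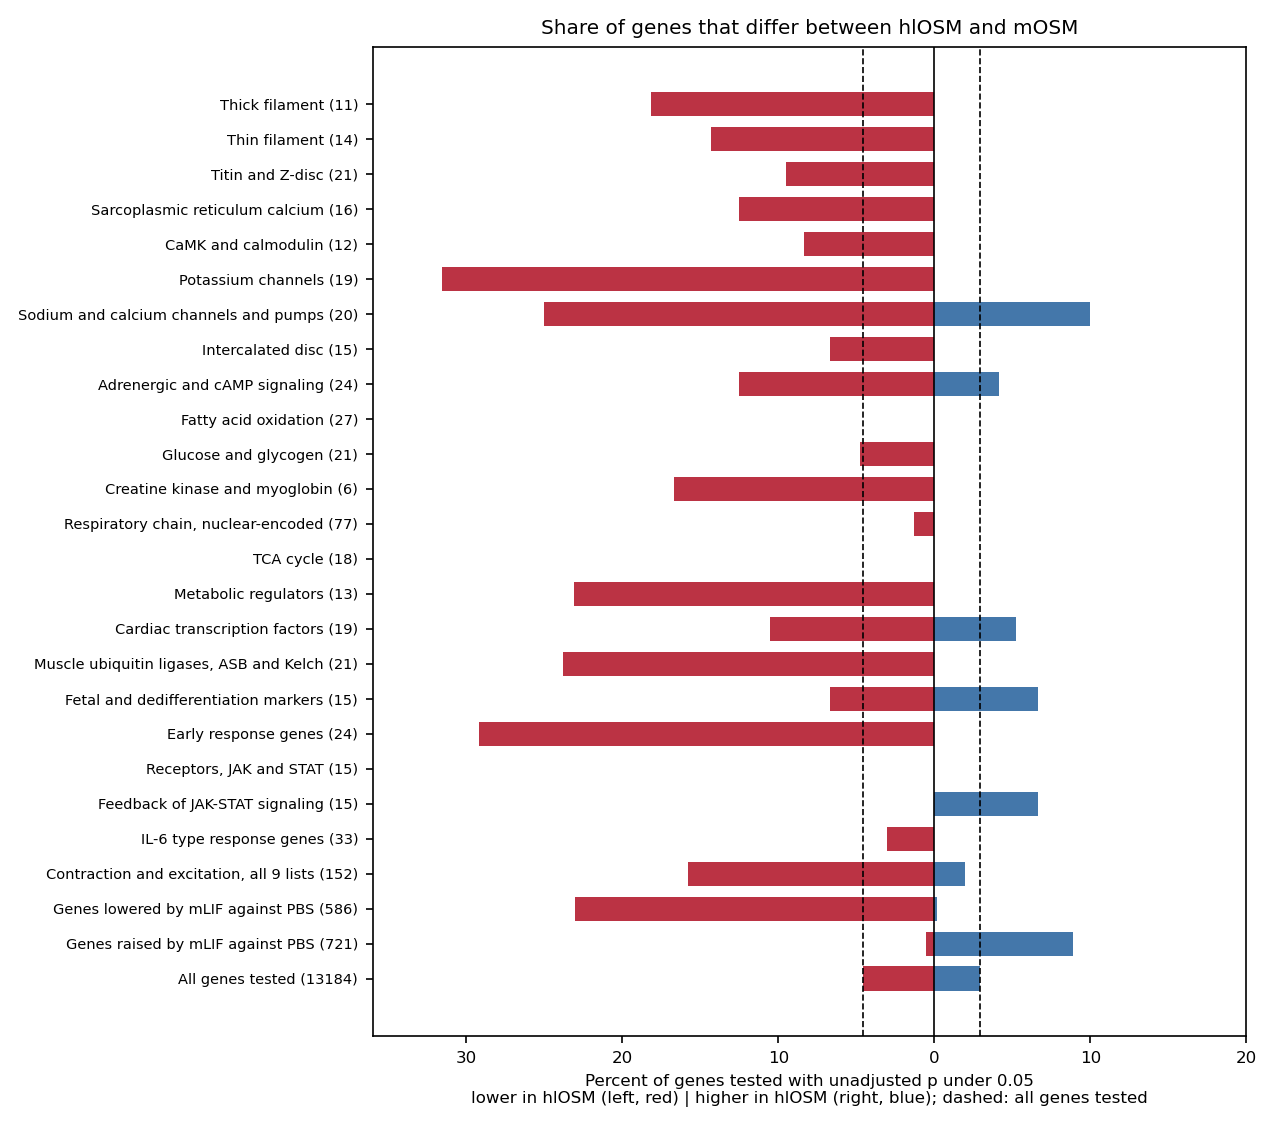
Percent of the tested genes of each list (rows, number tested in brackets) with an unadjusted p under 0.05, lower with hlOSM to the left and higher to the right, with the shares of all genes tested as dashed lines at 4.59 and 2.9. The bars of potassium channels (31.6%) and early response genes (29.2%) reach farthest to the left. In both lists the median of a library, relative to the gene means in the 6 libraries, overlapped between the cytokines. For potassium channels it was -0.015 in mOSM replicate 3 and 0.019 in hlOSM replicate 3. For early response genes it was -0.048 in mOSM replicate 1 and 0.042 in hlOSM replicate 3.

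The genes that mLIF changed by itself leaned the same way with hlOSM against mOSM. The 586 genes that passed as lower with mLIF against PBS were chosen by a difference between libraries that are not part of the comparison of hlOSM with mOSM. The fit of all 12 libraries gives both tests the same estimate of each gene's spread. The shares at an unadjusted p are therefore not fully independent of the choice. Their median difference between hlOSM and mOSM was -0.091, 501 of them (85.5%) lay below 0, and 135 (23.0%) were lower at an unadjusted p under 0.05 against 1 that was higher. The 721 genes (5.47% of those tested) that passed as higher with mLIF had a median of 0.063, with 188 below 0, and 64 (8.88%) were higher at an unadjusted p under 0.05 against 4 that were lower. Of the 11877 genes that did not pass with mLIF, 3.92% were lower and 2.67% higher. These differences were small beside those of mLIF itself, whose medians over the same lists were -0.35 and 0.44. Across all 13184 genes, Pearson's r between the hlOSM-mOSM and the mLIF-PBS differences was 0.232, and across the 8670 genes (65.8%) with a mean of at least 50 it was 0.402. Genes are not independent replicates, and no p is given.

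The size of this shift depended on single libraries, and for the genes raised by mLIF so did the sign of the median. Without mOSM replicate 3, the median of the genes lowered by mLIF was -0.0299, and 12.9% of them were lower at an unadjusted p under 0.05 (3.42% of all genes). Without PBS replicate 3, 194 genes passed as lower with mLIF, and 41.8% of them were lower (4.87% of all genes). Without hlOSM replicate 3, the median of the genes raised by mLIF was -0.0053, and 2.59% of them were higher (1.87% of all genes). Without PBS replicate 3, 14.0% of the genes raised by mLIF were higher (3.25% of all genes).

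The contraction and excitation lists hold 41 of the 586 genes lowered by mLIF. These are 41 of the 152 genes tested in the lists, against 4.44% of all genes tested. Their median difference between hlOSM and mOSM was -0.096, with 38 below 0. At an unadjusted p under 0.05, 14 (34.1%) were lower, against 4.59% of all genes tested. The other 545 genes lowered by mLIF had a median of -0.091, with 121 (22.2%) lower. The 104 contraction and excitation genes that did not pass with mLIF had a median of -0.03, and 10 (9.62%) were lower. Whether these 3 groups differ was not tested.

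**Figure D5:**
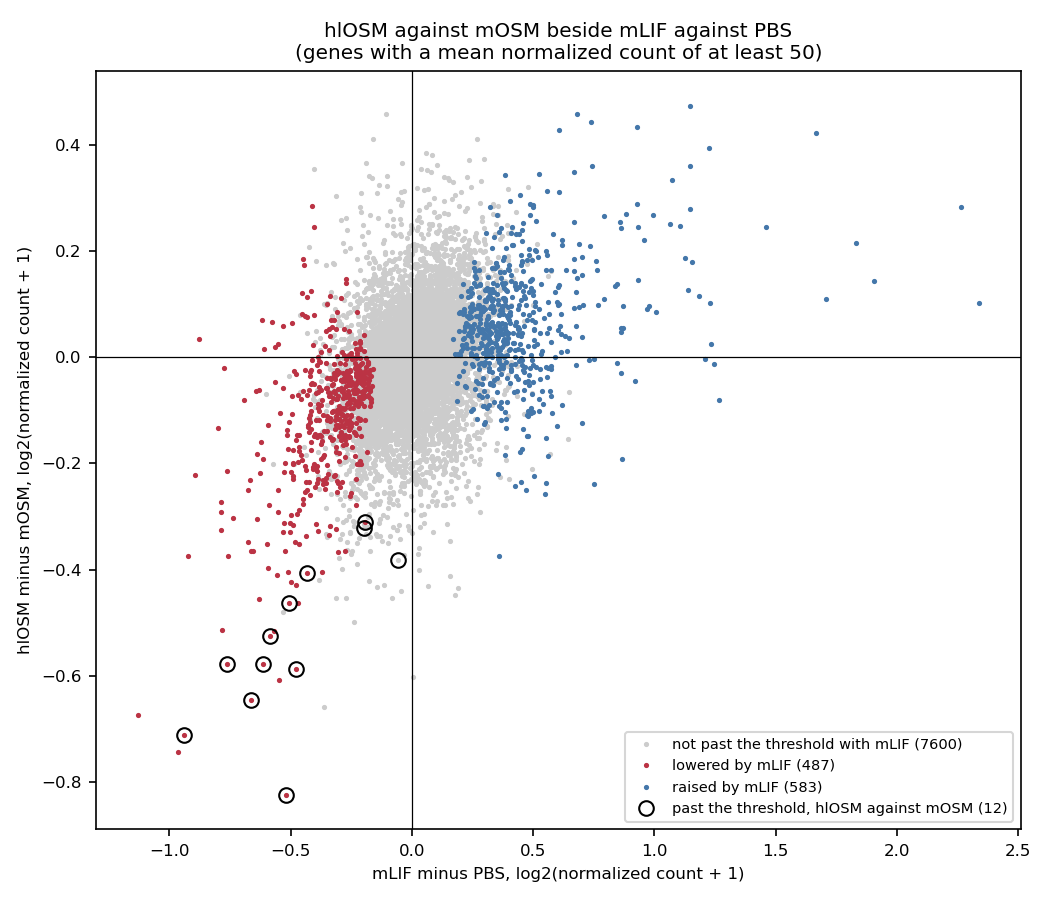
Difference between hlOSM and mOSM (y axis) against the difference between mLIF and PBS (x axis), both in log2(normalized count + 1), for the 8670 genes with a mean of at least 50, colored by their result with mLIF. Circles mark the 12 of the 14 genes with such a mean, all of which lie at the lower left.

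No gene passed as higher with hlOSM than with mOSM. The 10 genes with the smallest p on the higher side, among those with a mean of at least 50 and without overlap of libraries, had differences between 0.24 and 0.46 and adjusted p-values from 0.144. Dtna, which encodes the dystrophin-associated protein dystrobrevin, came first, with 683, 635 and 692 with mOSM and 730, 807 and 839 with hlOSM, from 457, 442 and 457 with PBS (0.24, adjusted p = 0.144). Abca8a, a lipid transporter gene, had 41, 33 and 36 with mOSM and 48, 56 and 48 with hlOSM, from 176, 167 and 214 with PBS (0.46, adjusted p = 0.159), so that hlOSM lay between mOSM and PBS. Bhlhe41, a transcriptional repressor of the circadian clock, had 275, 277 and 253 and then 318, 311 and 326 (0.25), and Mal, a membrane protein gene, 346, 343 and 386 and then 423, 418 and 498 (0.31). Among the others were Tmem161b, Cpne2, Gm49540, Gm20008 and Wdr35, and 64.6% of the exonic bases of Gm49540 are overlapped by Mb on the other strand.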

How the data were processed

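RNA of the 12 samples was sequenced from single-end libraries, and the titles of the samples gave condition and replicate number. The authors aligned trimmed reads with STAR 2.7.7a to mm10, counted with featureCounts 1.6.5 the reads on exons of a single gene, and normalized the counts. The deposited values are scores on a normalized count scale, rounded to whole numbers. The normalization and the strand setting of the counting are not given in the sources used here. Tests that model read counts were therefore not used.

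A two-sided linear model (limma 3.58.1, R 4.3.3, trend in eBayes) was fitted to log2(normalized count + 1) over the 4 conditions together and was tested on simulated data. Summaries were made in Python 3.11.15. With 3 libraries against 3, an exact permutation test of a single gene cannot go below 0.1.

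Named genes were those past the threshold, the 10 with the smallest p in each direction with a mean of 50 or more and separate libraries, 15 cardiomyocyte genes (14 of them shown), 11 receptor, STAT and target genes, and the extremes of each list. Other list members, Fam129a, Tiam1 and Glt28d2 were chosen after their values were seen. The members and lists were chosen with earlier results of these data known. The 35 lists were written by hand. Some genes that this rule takes or that the lists hold are counted but not reported here by name. Mitochondrially encoded genes were not analysed here, and 1 of 6 erythroid markers was found, with 0 to 2 normalized counts.

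Alternatives were the replicate number as a block, a fit of the 6 libraries, trimmed-mean and quantile rescaling, no filter, a filter at 50, pseudocounts of 0.1 and 5, a robust fit, other thresholds and each library left out. Of the 22915 gene identifiers, 22876 were in the reference annotation.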

Additional observations from a re-analysis of the deposited data

Results flagged for a closer look

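The step from mOSM to hlOSM differed from the step from PBS to mLIF in 22 genes, by the limma test of the difference between hlOSM minus mOSM and mLIF minus PBS. In 20 genes this difference was negative, and in all of these mLIF stood above PBS. In 2 genes, Sema3c and Gm44829, it was positive, and in both mLIF stood below PBS. Since mLIF minus PBS is subtracted in the test, these directions are largely built in. Tiam1 and Mylk2 are among the 20 with hlOSM below mOSM (-0.45 and -0.37), and the rise of Tiam1 with mLIF did not pass in limma (0.18, adjusted p = 0.22). With the replicate block, 13 and 1 passed. Socs3 differed by -0.92, with a rise of 1.00 from PBS to mLIF and of 0.09 from mOSM to hlOSM, and its values with mOSM (763, 809 and 875) were already above those with mLIF (369, 363 and 425). Serpina3n differed by -2.23, with 140, 132 and 188 with mLIF and 265, 328 and 362 with mOSM. Kbtbd11 differed by -1.98, from 11, 13 and 4 with PBS to 37, 42 and 56 with mLIF, and from 219, 195 and 289 with mOSM to 256, 216 and 403 with hlOSM. Groups of 3 libraries are too small for a test of single libraries that stand apart.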

How the results depend on the processing

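All 14 genes kept the lower direction in every alternative that tested them. Their number was 14, and it was 0 with the 6 libraries alone, 7 with trimmed-mean rescaling, 6 without the filter, 2 with the replicate block, 1 at an adjusted p under 0.01 and 6 with a minimum of 1.5-fold, while 1 gene was higher with a pseudocount of 0.1, 2 with quantile normalization and 1 at an adjusted p under 0.1. Leaving out each library in turn gave 1 to 16 lower genes, with 1 left without mOSM replicate 3, 2 without mOSM or hlOSM replicate 1, 4 without any of the mLIF libraries, and 5 without PBS replicate 1 or 2, mOSM replicate 2 or hlOSM replicate 2, and 0 to 1 higher genes. The cause was not tested, except that fewer libraries and more genes tested leave less power by construction. The difference between the step from mOSM to hlOSM and that from PBS to mLIF had 20 lower and 2 higher genes. Its counts were 12 and 1 with trimmed-mean rescaling, 10 and 1 without the filter, 13 and 1 with the block, 5 and 0 at an adjusted p under 0.01 and 42 and 5 at one under 0.1. The lower count was 12 with quantile normalization and 10 with the robust fit, the higher count 1 with a minimum of 1.5-fold, and leaving out a library gave 5 to 128 and 0 to 14, the highest without hlOSM replicate 3.

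The median over contraction and excitation genes lay between -0.0699 and -0.0069 with a library left out, that over genes lowered by mLIF between -0.145 and -0.0299, and that over genes raised by mLIF between -0.0053 and 0.103. The shares at an unadjusted p under 0.05, an alternative set chosen after seeing the data, lay between 12.5% and 17.8%, between 12.9% and 41.8%, and between 2.59% and 14.0%.

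The replicate block follows from numbers that the titles share between conditions. Whether they pair the libraries cannot be read from these values. Deviations of same-numbered libraries correlated between -0.478 and -0.0497, 0 of 18 pairs exceeded 0.1, and 0 of 12 libraries correlated best with their own number. Over 6626 genes with a mean of at least 100, the mean of the 4 libraries numbered 3 less that of those numbered 1 had an SD of 0.0019 on the log2 scale, so that the effect of the number is near 0 in the deposited values, as if it had been removed. The deviations of the 4 libraries of a number then add up to about 0, which makes their correlations negative whether or not the libraries are paired. The fit without the block then counts more residual degrees of freedom than such values hold. The block moved the calls of hlOSM against mOSM from 14 to 2. Over all alternatives, single named genes lost the threshold in 155 values and gained it in 2, Dtna and Dsp with quantile normalization. The unknown depth limits all values near the filter, such as those of Cxcr4.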

Other observations

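Of 80 genes for cytosolic ribosomal proteins, 59 lay above 0 (47.8% of all genes tested did), with a median of 0.029, and 1, Rps21, was higher at an unadjusted p under 0.05 (59, 62 and 58 with mOSM, 68, 66 and 79 with hlOSM, adjusted p = 0.659). By library, the median over the 80 genes, relative to their means in the 6 libraries, was -0.136, 0.0024 and 0.069 with mOSM. With hlOSM it was 0.020, -0.0038 and 0.042, so that the lean rested on mOSM replicate 1. The 24 interferon-stimulated genes had a median of 0.024, 37 proteasome genes 0.015 and 20 endoplasmic reticulum chaperones 0.016, with Irf1 (-0.26) and Psma2 (-0.18) as the genes with an unadjusted p under 0.05, both lower. Of 26 collagen genes, Col1a1 (-0.17) and the low Col11a2 (-0.57) were lower and the low Col4a6 was higher (0.92), with a median of -0.08. Of 10 fibroblast markers, 2 were lower at an unadjusted p under 0.05, Col1a1 and Postn, and Postn had 237, 206 and 264 with mOSM and 193, 201 and 194 with hlOSM (-0.26, adjusted p = 0.393). Of 9 markers of smooth muscle cells and pericytes, Tagln (-0.45) and Cspg4 (-0.22) were lower and the low Myh11 was higher (0.69), and 67.9% of the exonic bases of Tagln are overlapped by genes of the other strand. Of fetal and dedifferentiation markers, Tagln was lower and Dab2 higher (0.18), in 15 genes tested.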
